A study of Homo sapiens with 12 samples.

Results

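The 10 genes described here were SLC14A1, TMPRSS15, PARM1, MUC15, CST1, CST2, TNFSF15, RGS2, AK5 and FMN1, out of 18417 genes with a probe set of their own. They were chosen by their log2 array values, which differed among the Tet1, HOXA9 and shHMGA2 groups, so those differences are given as a description and without a test. All 10 were found, each read from the brightest probe set that carries its symbol alone. The working name for them was secretory and transport genes separating Tet1 and HOXA9, and it covers them only in part: RGS2, AK5 and FMN1 encode proteins of the cell interior, and the Tet1 and HOXA9 arrays of MUC15 and CST2 overlapped.

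RNA came from 1833 cells, which derive from MDA-MB-231, a human breast cancer line, and home to bone, and was measured on Affymetrix Human Gene 1.0 ST arrays. The Tet1 group carried an inducible Flag-tagged Tet1 and the HOXA9 group an inducible HOXA9, each together with the Tet-On 3G regulator, delivered by lentivirus with puromycin and G418 selection in serum approved for tetracycline systems. The shHMGA2 group carried an shRNA against HMGA2, delivered with the lentiviral vector pLKO.1 under puromycin selection. Vector and selection thus differed between the shHMGA2 group and the Tet1 and HOXA9 groups, along with the genes introduced. For the control cells the labels name no vector, regulator or selection. Whether vector, selection or serum differed from control is therefore not known, and any such difference cannot be told apart from the genes introduced. There were 2 independent arrays each of Tet1 and HOXA9 and 3 each of shHMGA2 and control. For Tet1 and HOXA9 samples 1 label names 1834 cells where the titles name 1833; shHMGA2 and control samples carry 1833 in both. The sources used here do not give the inducer, its dose or its time.

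The products of these genes work at different places along the route out of the cell and at its surface. SLC14A1 is the urea transporter of red cells and of kidney vessels, and TMPRSS15 is enteropeptidase, the intestinal membrane protease that activates trypsinogen. PARM1 and MUC15 are mucin-like membrane proteins. CST1 and CST2 are salivary-type cystatins, secreted inhibitors of cysteine proteases such as the cathepsins. TNFSF15 is a TNF-family cytokine that signals through the receptor TNFRSF25. RGS2 shortens signalling by Gq-coupled receptors, AK5 is an adenylate kinase best known from brain, and FMN1 is a formin that builds unbranched actin filaments. TET1 oxidises 5-methylcytosine, which in human DNA lies mainly at CG pairs, while HOXA9, a homeobox protein, binds DNA as a transcription factor.

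The bases before the start site are shown for the 4 genes with the largest measured Tet1 to HOXA9 differences among the members that have a promoter entry, because CG pairs are the substrate of Tet1. Each run holds 250 bases, 5′ to 3′, from RefSeq on GRCh38.p14, at the most upstream start listed, with every CG pair in capitals. Which start these cells use, and which CG pairs are methylated, was not measured.
SLC14A1, chr18:45723931-45724180, plus strand: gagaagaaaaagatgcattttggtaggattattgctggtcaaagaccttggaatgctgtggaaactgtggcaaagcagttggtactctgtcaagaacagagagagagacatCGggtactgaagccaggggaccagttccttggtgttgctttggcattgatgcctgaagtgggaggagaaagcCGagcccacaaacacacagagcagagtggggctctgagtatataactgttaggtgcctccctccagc
TMPRSS15, chr21:18403786-18404035, minus strand: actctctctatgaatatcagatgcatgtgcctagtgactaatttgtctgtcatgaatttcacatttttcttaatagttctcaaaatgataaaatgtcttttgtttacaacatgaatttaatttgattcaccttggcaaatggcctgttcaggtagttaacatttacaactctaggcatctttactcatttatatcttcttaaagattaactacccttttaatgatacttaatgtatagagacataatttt
TNFSF15, chr9:114792531-114792780, minus strand: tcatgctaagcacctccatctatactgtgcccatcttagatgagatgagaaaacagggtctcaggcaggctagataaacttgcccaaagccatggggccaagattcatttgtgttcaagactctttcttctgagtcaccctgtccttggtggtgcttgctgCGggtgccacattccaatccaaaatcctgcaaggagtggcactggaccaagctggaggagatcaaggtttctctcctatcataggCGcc
RGS2, chr1:192808789-192809038, plus strand: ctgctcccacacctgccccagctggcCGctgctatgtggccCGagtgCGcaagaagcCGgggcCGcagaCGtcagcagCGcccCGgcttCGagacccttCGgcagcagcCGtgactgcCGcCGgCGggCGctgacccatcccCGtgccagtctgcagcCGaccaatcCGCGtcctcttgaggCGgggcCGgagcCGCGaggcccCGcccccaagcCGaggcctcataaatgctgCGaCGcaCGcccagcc

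These windows differ widely in CG pairs. The TMPRSS15 window holds 0, the SLC14A1 and TNFSF15 windows 2 each and the RGS2 window 28, while the median over 35116 RefSeq promoter windows of this length is 11. Of the other members, AK5 has 39 and PARM1 and FMN1 have 21 each at their most upstream start, and 7 of the 10 members had an entry. The letters TGATTTA, a core bound by HOX proteins together with PBX, were searched on both strands and occur at 0 of these 7 most upstream starts, and in 2.59% of all windows. FMN1 has them at its second listed start. TTTACG, a core of posterior HOX proteins, occurs at 0 of the 7, and in 2.68% of all windows. A match or its absence is a property of these letters only.

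The arrays formed 2 sets. Correlations over all probe sets were 0.993 to 0.997 among the Tet1 and HOXA9 arrays, 0.986 to 0.998 among the shHMGA2 and control arrays, and 0.945 to 0.966 between the sets. The lower quartile of the log2 values was 6.22 to 6.25 in the Tet1 and HOXA9 arrays, against 5.75 to 5.76 in the others. Comparisons of Tet1 with HOXA9 and of shHMGA2 with control lie within a set. Comparisons across the sets cannot be told apart from the set itself, and there the median gene was 0.24 to 0.28 higher in Tet1 or HOXA9. The TET1 probe set was at 7.16 and 6.98 in the arrays labelled Tet1, against 7.20 and 7.40 in those labelled HOXA9; whether it reads the introduced copy is not known, so the Tet1 label could not be checked and rests on the submitters. TET1 was at 8.72, 8.92 and 9.29 in the shHMGA2 arrays, against 6.59, 6.45 and 6.66 in control. The probe set shared by ELAC2 and HMGA2 was at 8.93, 9.02 and 8.47 in shHMGA2, against 9.55, 9.65 and 9.48 in control. HOXA9 itself was not analysed here, so the HOXA9 label was not checked either and also rests on the submitters. A signal under 6.26, the level that 30% of probe sets fall short of, is called dim here, since it is not known to lie above background. This cut is shared by both array sets, whose lower quartiles differ, so a Tet1 or HOXA9 value above it can still lie near background.

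Between the Tet1 and HOXA9 arrays, 6 of the 10 genes stood lower in Tet1 and TNFSF15 and CST1 higher, without overlap, while the arrays of MUC15 and CST2 overlapped. The arrays of 41.3% of all 18417 genes did not overlap either, and the members were chosen for such differences. SLC14A1 was at 7.25 and 7.42 in the Tet1 arrays, 10.09 and 10.19 in the HOXA9 arrays and 5.75, 5.76 and 5.74 in the shHMGA2 arrays, against 6.59, 6.47 and 7.31 in the control arrays. SLC14A1 was bright only in the HOXA9 arrays; the Tet1 and control arrays overlapped, and the shHMGA2 arrays were dim. The Tet1 mean was 6.99-fold below the HOXA9 mean (log2 difference -2.81, SE 0.20), the largest difference of either sign among the 18417 genes. TMPRSS15 was at 7.96 and 8.04 in the Tet1 arrays, 9.87 and 10.21 in the HOXA9 arrays and 5.24, 5.00 and 4.99 in the shHMGA2 arrays, against 6.01, 6.24 and 6.83 in the control arrays. The TMPRSS15 arrays of the 4 groups did not overlap, highest in HOXA9, then Tet1, then control. Every shHMGA2 array was dim, as were the control arrays at 6.01 and 6.24. Tet1 was 4.10-fold below HOXA9 (log2 difference -2.04, SE 0.21), and single pairs of arrays differed by -2.25 to -1.83.

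The mucin-like genes behaved differently from each other. PARM1 was at 7.17 and 7.14 in the Tet1 arrays, 8.15 and 8.30 in the HOXA9 arrays and 8.49, 8.04 and 7.95 in the shHMGA2 arrays, against 8.92, 8.66 and 8.56 in the control arrays. PARM1 was lowest in Tet1, and its HOXA9 and shHMGA2 arrays overlapped. The Tet1 mean lay 1.07 below HOXA9 on the log2 scale (log2 difference -1.07, SE 0.16). MUC15 was at 9.50 and 9.60 in the Tet1 arrays, 9.50 and 9.75 in the HOXA9 arrays and 5.93, 5.49 and 5.55 in the shHMGA2 arrays, against 7.11, 6.42 and 7.07 in the control arrays. The Tet1 and HOXA9 arrays of MUC15 overlapped (log2 difference -0.08, single pairs of arrays -0.25 to 0.10). Both groups were far above control, and all shHMGA2 arrays were dim.

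**Figure D1:**
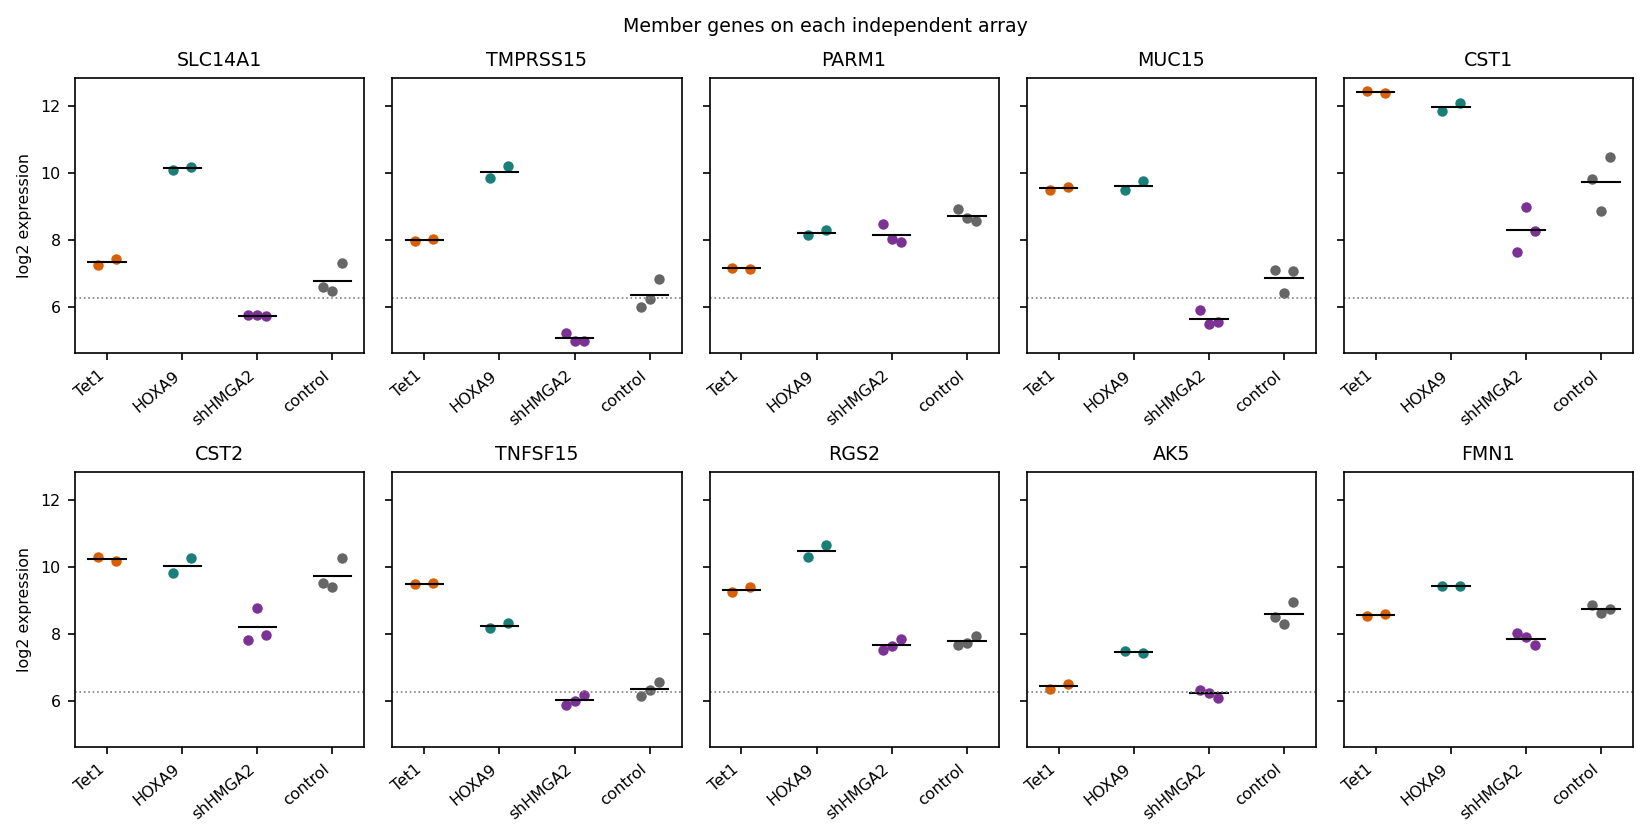
Level of each of the 10 genes on each independent array (log2 expression, vertical axis, shared scale), by group; points are arrays, bars are group means, and the dotted line is the dim level (6.26). SLC14A1, TMPRSS15, PARM1, RGS2, AK5 and FMN1 lie lower in Tet1 than in HOXA9, TNFSF15 lies higher, and MUC15 and CST2 overlap.

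The salivary-type cystatins were bright in Tet1 and HOXA9 alike. CST1 was at 12.46 and 12.40 in the Tet1 arrays, 11.86 and 12.11 in the HOXA9 arrays and 7.63, 8.97 and 8.28 in the shHMGA2 arrays, against 9.81, 8.88 and 10.47 in the control arrays. For CST1 the Tet1 arrays were the highest and did not overlap HOXA9 (log2 difference 0.45, SE 0.44, single pairs of arrays 0.30 to 0.60). The SE, which pools the spread of all groups, was nearly as large as this difference. The SD of CST1 was 0.04 in Tet1, 0.17 in HOXA9 and 0.67 in shHMGA2, against 0.80 in control. CST2 was at 10.31 and 10.17 in the Tet1 arrays, 9.81 and 10.27 in the HOXA9 arrays and 7.83, 8.77 and 7.98 in the shHMGA2 arrays, against 9.53, 9.42 and 10.28 in the control arrays. CST2 overlapped among Tet1, HOXA9 and control (Tet1 minus HOXA9 0.20, single pairs of arrays -0.10 to 0.50), and its shHMGA2 arrays lay below all the rest. CST1, CST2 and CST4 are close paralogs, so their probe sets may share signal, which was not tested.

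TNFSF15, like CST1, had a higher mean in Tet1 than in HOXA9, by more and with a smaller SE. TNFSF15 was at 9.48 and 9.53 in the Tet1 arrays, 8.19 and 8.31 in the HOXA9 arrays and 5.89, 5.99 and 6.17 in the shHMGA2 arrays, against 6.14, 6.32 and 6.57 in the control arrays. Its 4 Tet1 and HOXA9 arrays lay far above the others, with Tet1 on top, and the shHMGA2 and control arrays overlapped near the dim range. The Tet1 mean was 2.38-fold above HOXA9 (log2 difference 1.25, SE 0.12).

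The genes of the cell interior were all lower in Tet1 than in HOXA9. RGS2 was at 9.25 and 9.40 in the Tet1 arrays, 10.31 and 10.65 in the HOXA9 arrays and 7.53, 7.64 and 7.84 in the shHMGA2 arrays, against 7.67, 7.73 and 7.94 in the control arrays. RGS2 was highest in HOXA9, then Tet1, while its shHMGA2 and control arrays overlapped below both (Tet1 minus HOXA9 -1.15, SE 0.13). AK5 was at 6.37 and 6.50 in the Tet1 arrays, 7.49 and 7.44 in the HOXA9 arrays and 6.33, 6.25 and 6.09 in the shHMGA2 arrays, against 8.51, 8.30 and 8.95 in the control arrays. AK5 was highest in control and lowest in shHMGA2 and Tet1, with HOXA9 between them (Tet1 minus HOXA9 -1.03, SE 0.16). Its Tet1 mean stood at percentile 16.6 among all genes, and its shHMGA2 mean, which is dim, at 22.5. The Tet1 signal may thus lie near background, and AK5 differences from it can understate the change in RNA. FMN1 was at 8.54 and 8.60 in the Tet1 arrays, 9.42 and 9.44 in the HOXA9 arrays and 8.03, 7.90 and 7.66 in the shHMGA2 arrays, against 8.87, 8.63 and 8.75 in the control arrays. FMN1 was the one member with Tet1 below and HOXA9 above every control array (Tet1 minus HOXA9 -0.86, SE 0.11). Its second, dimmer probe set was at 7.24 and 7.19 in Tet1 and 7.52 and 7.85 in HOXA9, against 6.56, 6.60 and 6.52 in control, which is the same order of Tet1 and HOXA9 but places Tet1 above control.

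Over all 18417 genes, 0.434% were called between Tet1 and HOXA9 (limma, adjusted p under 0.05, 21 higher and 59 lower in Tet1) and the arrays of 41.3% did not overlap. That share rests on 80 genes, which came to 11, 18 and 17 on leaving out Tet1 replicate 1, Tet1 replicate 2 and HOXA9 replicate 2 in turn, and to 145 after quantile normalization and 143 in a fit of these groups alone. Arrays did not overlap for 8 of the 10 members, a count fixed by how they were chosen. By size of the difference, SLC14A1 ranked 1, TMPRSS15 4, TNFSF15 7, RGS2 8, PARM1 9, AK5 12 and FMN1 25. CST1 ranked 164, CST2 1831 and MUC15 8829.

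**Figure D2:**
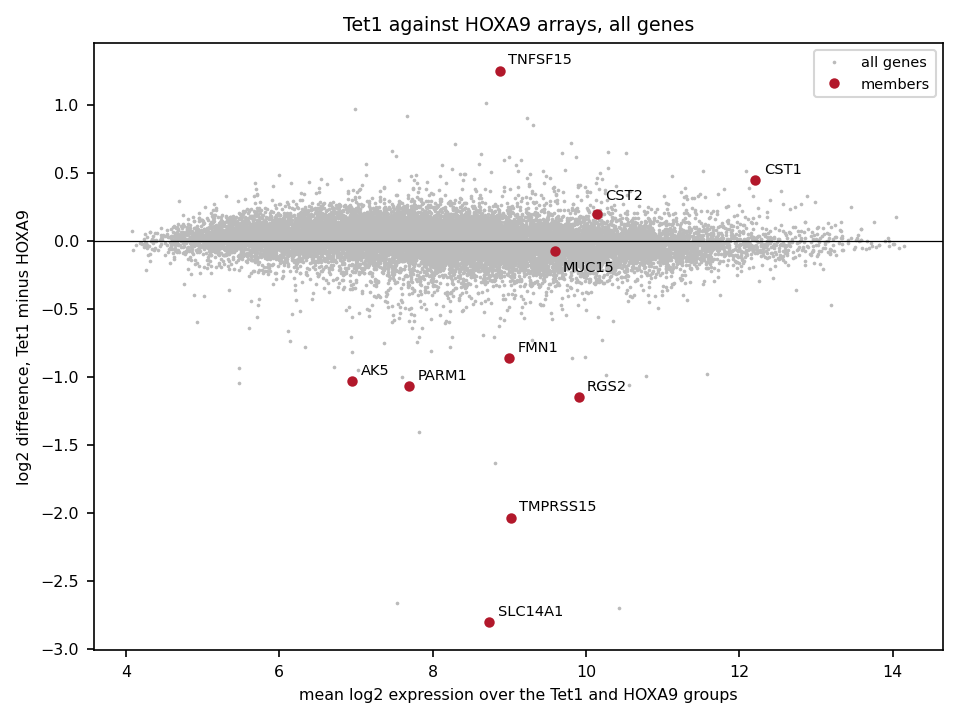
Log2 difference, Tet1 minus HOXA9 (vertical axis), against the mean log2 expression over both groups (horizontal axis), for all 18417 genes (grey) and the 10 members (red). SLC14A1, TMPRSS15, TNFSF15, RGS2, PARM1, AK5 and FMN1 lie outside the dense cloud, CST1 at its upper edge, and MUC15 and CST2 inside it.

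The shHMGA2 and control arrays, compared to see what depletion of HMGA2 changes, lie within 1 array set. All 10 genes had a lower mean in shHMGA2, and 9 fell (limma adjusted p under 0.05), while 12.6% of all genes fell and 13.6% rose. The shHMGA2 arrays also served to choose the members, so this count is not independent evidence. AK5 fell most, to 6.22 ± 0.12 in shHMGA2 against 8.59 ± 0.33 in control (SD, n = 3 each), a 5.15-fold difference (log2 -2.36, SE 0.13, limma adjusted p = 2.34e-07). CST2 fell 2.92-fold (adjusted p = 0.000876), TMPRSS15 2.43-fold (adjusted p = 0.000203), MUC15 2.32-fold (adjusted p = 0.000299) and SLC14A1 2.06-fold (adjusted p = 0.000727). The shHMGA2 means of SLC14A1, TMPRSS15, AK5, TNFSF15 and MUC15 lay below 6.26, so these folds can understate the change in RNA. Control arrays of TMPRSS15 at 6.01 and 6.24 and of TNFSF15 at 6.14 were dim too. CST1 fell by 1.43 on the log2 scale (adjusted p = 0.0115), although 1 shHMGA2 array at 8.97 lay above the lowest control array at 8.88. FMN1 fell by 0.89 (adjusted p = 2.79e-05) and PARM1 by 0.55 (adjusted p = 0.00773). The fall of FMN1 is that of its brighter probe set. Its second probe set was at 6.42, 6.86 and 6.47 in shHMGA2, against 6.56, 6.60 and 6.52 in control, with overlapping arrays. Over the alternatives run, the FMN1 difference ranged from -0.97 to -0.43. TNFSF15 fell by 0.33 with overlapping arrays (adjusted p = 0.0331), a call lost when any of 4 arrays was left out (adjusted p = 0.0618 to 0.119) and in a fit of these groups alone (0.0713). RGS2 was at 7.67 ± 0.16 in shHMGA2 and 7.78 ± 0.14 in control (SD, n = 3 each; log2 difference -0.11, 95% confidence interval -0.34 to 0.12, adjusted p = 0.524).

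Beside these falls, markers of another cell line moved in the same arrays. Of 9 genes listed as traits of an embryonic kidney line, 5 were higher in shHMGA2 than in control and 0 lower, and the mean of the list was 7.42 to 7.63 over the shHMGA2 arrays, against 6.59 to 6.69 over control. CDH6 and TFAP2B stayed below 6.26 in shHMGA2. Of 6 markers of mesenchymal breast cancer cells 4 were lower in shHMGA2, and of 9 luminal markers 4 were lower, with luminal list means of 7.11 to 7.20 in shHMGA2 against 7.43 to 7.61 in control. Fewer cells of a type and less RNA per cell cannot be told apart in these bulk samples. CDKN2A was at 9.88 in shHMGA2 and 7.40 in control, and MTAP at 8.00 in shHMGA2 and 6.28 in control (adjusted p = 3.62e-07 and 2.95e-07). Both genes lie in a stretch of chromosome 9 that is deleted in MDA-MB-231 cells. The part of these signals in the falls was not tested.

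The comparisons of Tet1 and of HOXA9 with control share the control arrays and cross the array sets, so each gene's values are given side by side and their calls are read against a high background. Of all genes 53.9% were called higher and 23.2% lower in Tet1, and 54.0% higher and 21.6% lower in HOXA9. These splits moved with the scaling: 69.9% of the Tet1 calls were higher as deposited, 49.4% after one quantile normalization over all arrays and 29.9% with equal array medians, and for HOXA9 the shares were 71.4%, 46.6% and 28.4%. Among the members, 6 were called higher and 2 lower in Tet1, and 7 higher and 2 lower in HOXA9, shares that are not independent of how they were chosen.

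The largest member differences from control were those of TMPRSS15 and SLC14A1 in HOXA9 and of TNFSF15 in Tet1. TMPRSS15 was 1.64 higher than control in Tet1 and 3.68 higher in HOXA9 on the log2 scale (SE 0.19 each, limma adjusted p = 7.63e-06 and 2.88e-08). SLC14A1 was 3.35 higher in HOXA9 (SE 0.18, adjusted p = 4.88e-08) but 0.55 higher in Tet1 (adjusted p = 0.0173), and the Tet1 value came to 0.01 after quantile normalization (adjusted p = 0.957) and 0.08 with equal array medians (adjusted p = 0.712). That call was also lost without Tet1 replicate 2, control replicate 1 or control replicate 2 (adjusted p = 0.116, 0.0582 and 0.0632). TNFSF15 was 3.16 higher in Tet1 and 1.91 higher in HOXA9 (SE 0.11 each, adjusted p = 2.18e-09 and 7.88e-08). MUC15 was 2.68 and 2.76 higher (SE 0.19 each), RGS2 1.55 and 2.70 higher (SE 0.12 each) and CST1 2.71 and 2.26 higher (SE 0.40 each), in Tet1 and in HOXA9 in that order, all of them also called under both other scalings. CST2, by contrast, was 0.50 higher in Tet1 (95% confidence interval -0.12 to 1.11, adjusted p = 0.126) and 0.30 higher in HOXA9 (95% confidence interval -0.32 to 0.92, adjusted p = 0.348). Without control replicate 3, CST2 in Tet1 was 0.77 higher and called (adjusted p = 0.0167).

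AK5 and PARM1 were lower than control in both groups. AK5 was at 6.43 ± 0.09 in Tet1 and 7.46 ± 0.03 in HOXA9 (SD, n = 2 each), against 8.59 ± 0.33 in control (SD, n = 3), log2 differences of -2.16 and -1.12 (SE 0.15 each, limma adjusted p = 1.54e-07 and 2.3e-05). PARM1 differed by -1.56 in Tet1 (limma adjusted p = 1.48e-06). In HOXA9 the PARM1 difference was -0.49 (SE 0.14, adjusted p = 0.00878), and the HOXA9 call was lost without HOXA9 replicate 1 (adjusted p = 0.0799). FMN1 was 0.68 higher in HOXA9 (SE 0.10, adjusted p = 6.04e-05), a call lost with equal array medians (0.23, adjusted p = 0.0746). In Tet1 FMN1 differed by -0.18 (adjusted p = 0.117), by -0.35 after quantile normalization (adjusted p = 0.00715), by -0.65 with equal array medians (adjusted p = 0.000143) and by 0.24 with the mean of both probe sets (adjusted p = 0.0278), so no direction is given for it.

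**Figure D3:**
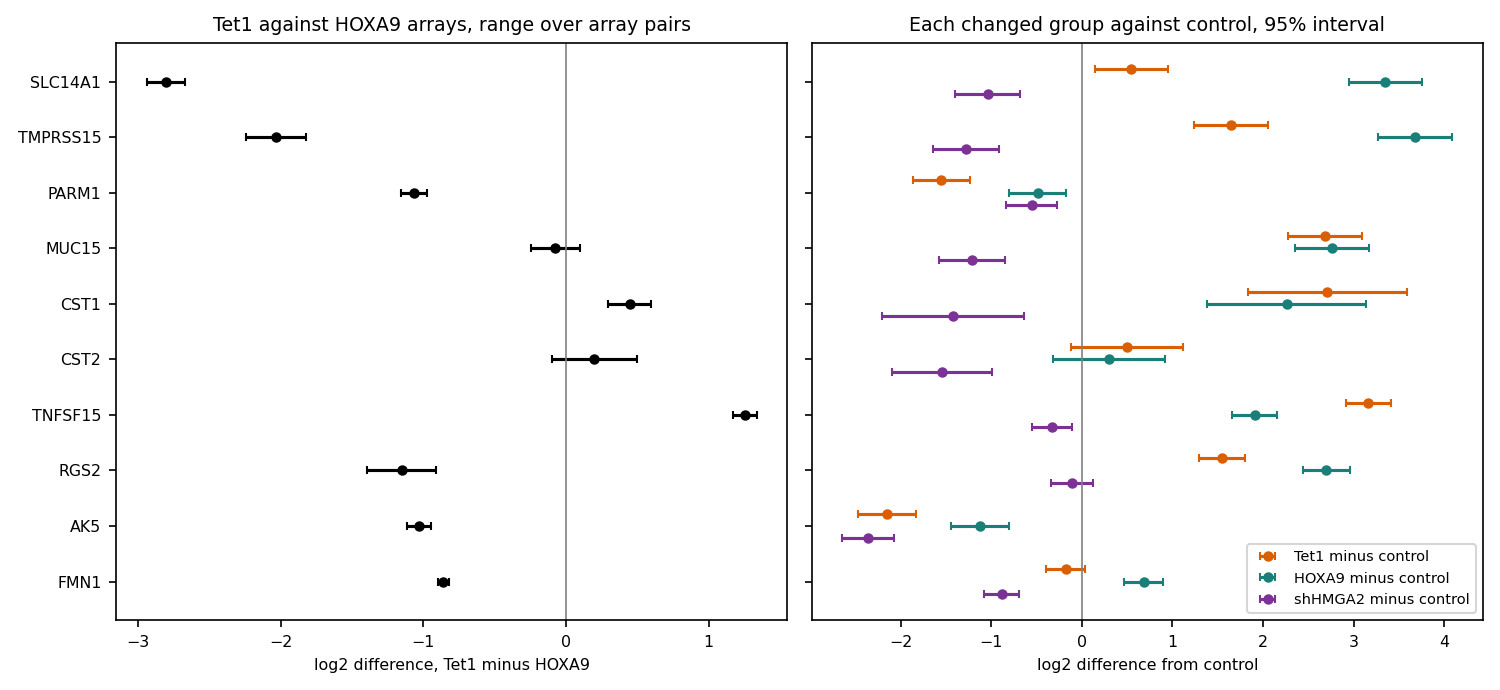
Log2 differences of the 10 genes (horizontal axes): left, Tet1 minus HOXA9, as the difference of means with bars over the range of single array pairs; right, each changed group minus control, with 95% confidence intervals from the limma fit. In the left panel the bars of MUC15 and CST2 cross 0. In the right panel SLC14A1, TMPRSS15, MUC15, TNFSF15 and CST1 lie left of 0 for shHMGA2 and right of 0 for Tet1 and HOXA9, while AK5 and PARM1 lie left of 0 in all 3 groups.

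Set against shHMGA2, the Tet1 and HOXA9 arrays showed the widest gaps, again across the array sets. TMPRSS15 was 2.92 and 4.96 higher, SLC14A1 1.59 and 4.39 higher, MUC15 3.90 and 3.97 higher, CST1 4.14 and 3.69 higher, and TNFSF15 3.49 and 2.24 higher, in Tet1 and in HOXA9 in that order (log2 differences). RGS2 was 1.65 and 2.81 higher, CST2 2.04 and 1.85 higher and FMN1 0.71 and 1.57 higher. Arrays of Tet1 and shHMGA2 did not overlap for 10 of 10 members, and those of 87.6% of all genes did not either. For HOXA9 and shHMGA2 the counts were 9 of 10 members and 84.8% of all genes. AK5 (Tet1 minus shHMGA2 0.21) and PARM1 (HOXA9 minus shHMGA2 0.07) lay nearest, and both changed sign with the scaling. PARM1 was lower in Tet1 than in shHMGA2 by 1.00.

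Relatives of the members were read from 9 lists: other cystatins, cysteine cathepsins, urea and water channels, type II transmembrane serine proteases with their inhibitors, mucins, adenylate kinases, formins and other actin nucleators, RGS proteins, and TNF-family ligands with the TNFSF15 receptors. Of 128 measured relatives, 1 was called between Tet1 and HOXA9 (0.781%, against 0.434% of all genes). It was DIAPH2, a diaphanous formin, at 8.75 and 8.76 in the Tet1 arrays, against 9.18 and 9.30 in the HOXA9 arrays (log2 difference -0.49, SE 0.07, limma adjusted p = 0.0125). DIAPH2 was lower in Tet1, as was the formin FMN1, and its call was lost on leaving out either Tet1 array (adjusted p = 0.201 and 0.154) or HOXA9 replicate 2 (adjusted p = 0.15). In the other 8 lists 0 of 111 relatives were called by limma, and 11 had an unadjusted p under 0.05 (9.91%, against 9.16% of all genes). The other urea transporter, SLC14A2, named for its role, was at 7.59 and 7.30 in Tet1 and 7.39 and 7.18 in HOXA9 (log2 difference 0.16, adjusted p = 0.773). TNFRSF25, the TNFSF15 receptor, also named for its role, was at 8.88 and 8.84 in Tet1 and 8.87 and 8.71 in HOXA9 (log2 difference 0.07, adjusted p = 0.841).

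In shHMGA2 against control, 25 of the 128 relatives were called (8 higher and 17 lower, 19.5% against 26.2% of all genes). Formins and actin nucleators had 9 of 17 called, 6 lower and 3 higher, with a list median of -0.11 against -0.03 over all genes. FMNL1 and INF2 fell by 0.59 and 0.47 on the log2 scale, and the actin nucleator COBL and the profilin PFN2 rose by 0.64 and 0.34. Of 12 cystatins, CST7 and CST3 fell by 0.50 and 0.27 and none rose. Of 12 cathepsins, the cystatin targets, CTSZ and CTSB fell by 0.58 and 0.32 and CTSV rose by 0.94. SPINT2, an inhibitor of membrane serine proteases, fell by 0.47 and was the 1 of 18 called in its list. The TNF-family death ligand TNFSF10 fell by 0.79 (1 of 15 called), the water channel AQP3 by 0.53 (1 of 12), and RGS16 rose by 0.31 (1 of 19). Among 16 mucins, MUC5B and PODXL fell by 0.42 and 0.34 and CD164 rose by 0.22 (3 lower and 1 higher in all). AK1 and the guanylate kinase GUK1 rose by 0.29 and 0.17 and CMPK1 fell by 0.33, 3 of 7 in the adenylate kinase list. The calls of AQP3, CD164, MUC5B, PODXL and GUK1 did not hold under all alternatives.

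Against control, 99 of the 128 relatives were called in Tet1 (77.3%, against 77.1% of all genes) and 97 in HOXA9 (75.8%, against 75.7%). All 12 cystatins were called higher in Tet1, and 10 of them in HOXA9. Quantile normalization left 4 higher in each, with 0 lower in Tet1 and 1 in HOXA9. With equal array medians 3 cystatins were higher and 2 lower in Tet1, and 5 higher and 3 lower in HOXA9. CST4 was 1.86 higher in Tet1 and 1.82 higher in HOXA9 (SE 0.17 each, limma adjusted p = 1.46e-06 and 2.03e-06), and it was called under both other scalings. TNFSF10 was 2.15 and 2.40 higher and the water channel AQP1 1.93 and 1.71 higher, in Tet1 and in HOXA9 in that order. Of 17 formins and actin nucleators, 9 were lower and 4 higher in Tet1 and 8 lower and 5 higher in HOXA9, where 23.2% and 21.6% of all genes were lower. After quantile normalization 10 were lower and 2 higher in Tet1 and 9 lower and 3 higher in HOXA9, with 33.3% and 34.0% of all genes lower. With equal array medians 14 were lower and 0 higher in each, with 51.4% and 51.1% of all genes lower and the median gene itself at -0.22 and -0.21. INF2 differed by -1.24 in Tet1 and -1.11 in HOXA9, and DIAPH3 by -0.87 and -0.76. AK4, a mitochondrial adenylate kinase, was 0.90 and 1.07 higher, while AK9 was lower by 0.96 in Tet1 and by 0.81 in HOXA9. Of the cathepsins, CTSO was 1.31 and 1.69 higher, CTSF was 1.00 and 1.08 higher, and CTSL was lower by 0.30 in Tet1 and by 0.36 in HOXA9.

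CST1 and CST2 lie next to each other on chromosome 20 (RefSeq, GRCh38.p14), between CST4 and CST5. CST4 was at 10.93 and 10.87 in Tet1, 10.85 and 10.85 in HOXA9 and 8.79, 8.56 and 8.71 in shHMGA2, against 9.32, 8.55 and 9.23 in control. The Tet1 and HOXA9 arrays lay above all others in CST4, as in CST1, and also in CST3 and CST5. Such gaps are common across the array sets. Arrays of 87.6% of all genes did not overlap between Tet1 and shHMGA2, and of 84.8% between HOXA9 and shHMGA2. CST3, the ubiquitous cystatin C on the other side of CST4, was at 12.06 and 11.99 in Tet1, 11.99 and 11.97 in HOXA9 and 11.11, 10.94 and 10.95 in shHMGA2, against 11.34, 11.17 and 11.31 in control. CST5 was at 7.66 and 7.66 in Tet1, 7.67 and 7.55 in HOXA9 and 7.01, 7.19 and 7.24 in shHMGA2, against 7.25, 7.17 and 7.28 in control. The Tet1 and HOXA9 arrays overlapped in CST3 and CST5 and lay close together in CST4. Of the 12 other cystatins 0 were called between Tet1 and HOXA9 by limma, and 1 had an unadjusted p under 0.05.

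**Figure D4:**
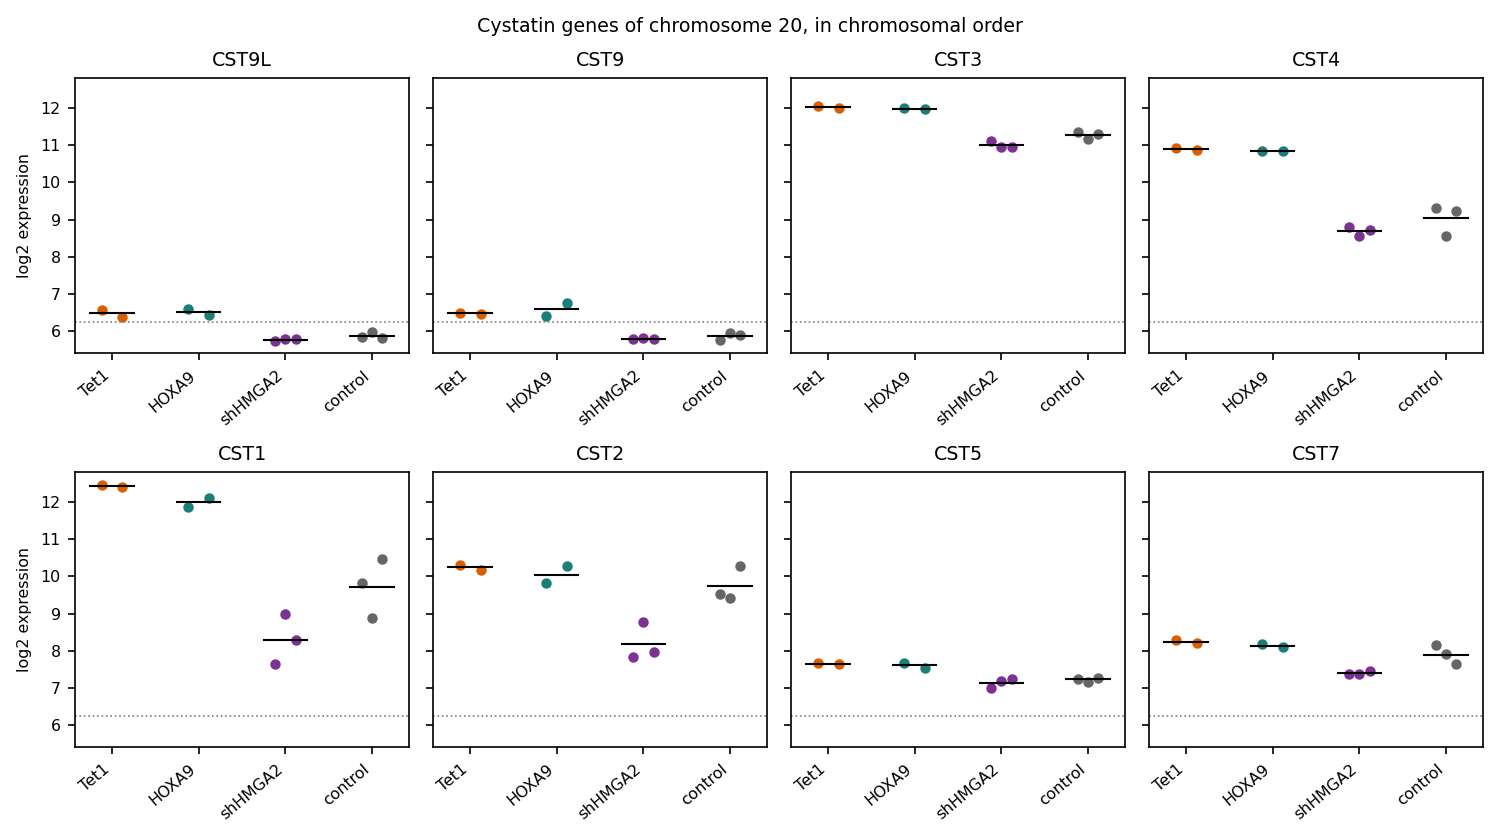
Level of the cystatin genes nearest to CST1 and CST2 on chromosome 20, with CST7 farther along it, on each independent array (log2 expression, vertical axis), by group; points are arrays, bars are group means, and the dotted line is 6.26. Tet1 lies 0.45 above HOXA9 in CST1 and close to it in the other panels, and CST1 and CST4 show the widest steps above control.

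Markers of the tissues in which members are best known were read beside them. Of 9 measured intestinal markers, read beside TMPRSS15, 0 were called between Tet1 and HOXA9 by limma (1 at an unadjusted p under 0.05), and the list mean was 6.67 to 6.69 in Tet1 and 6.58 to 6.66 in HOXA9. Of 6 erythroid markers, read beside SLC14A1, 0 were called and 0 had an unadjusted p under 0.05, with means of 7.14 to 7.18 in Tet1 and 7.09 to 7.11 in HOXA9. Of 8 salivary markers, read beside the cystatins, 0 were called and 1 had an unadjusted p under 0.05, with means of 6.47 to 6.52 in Tet1 and 6.44 to 6.46 in HOXA9. Among 7 fibroblast markers 2 were higher in Tet1, with means of 7.18 to 7.19 in Tet1 and 6.93 to 6.95 in HOXA9, and the part of this in the member differences was not tested. Against control, 6 of 9 intestinal, 6 of 8 salivary, 6 of 6 erythroid, 6 of 6 leukocyte and 6 of 7 fibroblast markers were called higher in both Tet1 and HOXA9, as were 53.9% and 54.0% of all genes, in comparisons that cross the array sets. Of 9 kidney-line markers 6 were called higher and 1 lower in Tet1, and 5 higher and 2 lower in HOXA9. Of 9 luminal markers 5 were called higher and 1 lower in Tet1, and 4 higher and 0 lower in HOXA9. Of 6 mesenchymal breast cancer markers 3 were called higher and 2 lower in each group. In shHMGA2 against control 0 intestinal, 0 salivary and 0 erythroid markers were called by limma, and 1 intestinal marker had an unadjusted p under 0.05. In the same comparison 2 of 6 leukocyte and 1 of 7 fibroblast markers were called lower, and 0 higher. The 6 markers of mesenchymal breast cancer cells were above the dim level in every group, with a list mean of 12.61 in Tet1, 12.63 to 12.70 in HOXA9, 12.09 to 12.38 in shHMGA2 and 12.47 to 12.54 in control.

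For each member the genes with the most similar profile over the 10 arrays were taken from 4569 other genes with a range of at least 1 log2 unit. These correlations are descriptions, since the points share groups and array sets. TMPRSS15 was closest to MALL, a membrane raft protein (Pearson r = 0.99), at means of 9.77 in Tet1, 10.75 in HOXA9 and 8.12 in shHMGA2, against 8.72 in control, and then to NALCN, a sodium leak channel (r = 0.99). SLC14A1 was closest to OAS1, an interferon-induced enzyme, and B3GALT5, a galactosyltransferase (r = 0.98 each). TNFSF15 was closest to the pseudogene GOLGA2P9 and to SERPINA3, a secreted protease inhibitor (r = 0.99 each), at 8.13 in Tet1 and 7.20 in HOXA9, against 5.69 in control. MUC15 was closest to F13A1 and CYP27A1 and RGS2 to DLG3 and TMTC2 (r = 0.99 to 1.00). FMN1 was closest to SERPINB5, a serpin known as maspin, and to SEMA3A, a guidance molecule (r = 0.98 each). CST1 was closest to ANKS1B and SDC3 (r = 0.99 and 0.98), CST2 to LINC01116 and GRAMD2B (r = 0.96 each). AK5 was closest to RCAN3 and PPARG (r = 0.95 each), and PARM1 to TUBG2 and to the gene annotated MIR221 (r = 0.96 and 0.94). MIR221 was at means of 8.00 in Tet1, 9.63 in HOXA9 and 9.18 in shHMGA2, against 9.74 in control. Its likeness to PARM1, with the lowest mean in Tet1, is what it was picked for.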

How the data were processed

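Log2 values for 33297 probe sets on 12 columns were deposited; per the submitters' processing notes the authors used RMA and R 2.11. The sources used here do not say if RMA ran on all arrays at once. In Tet1 and HOXA9, the column of replicate 3 was the average of the other replicates at each of the 33297 probe sets (within 1e-06) and was left out, leaving 10 arrays. The platform annotation gives 19460 probe sets 1 symbol, 1754 several and none to 12083; the highest-mean probe set was taken for each of 18417 genes. With limma 3.58.1 in R 4.3.3, group means were fitted for all genes (6 residual and 5.65 prior degrees of freedom); a call needs a two-sided p under 0.05 after Benjamini-Hochberg adjustment over all genes. SEs and intervals pool the spread of all groups. The script was tested on simulated data.

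Groups follow the sample titles. The labels call the arrays biological replicates without naming separate cultures, so p-values measure the spread between these samples, whose number limits every value. The members and lists were chosen with earlier results of these data known. Named genes were the members, up to 2 called relatives per list, direction and comparison, and the 2 genes most correlated with each member; of the relatives so named, the text gives a selection for Tet1 and HOXA9 against control. Alternatives were other scalings, probe set choices, filters, fits and left-out arrays.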

Additional observations from a re-analysis of the deposited data

Results flagged for a closer look

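DIAPH2 was called between Tet1 and HOXA9 (log2 difference -0.49, limma adjusted p = 0.0125), the 1 called gene among 128 relatives of the members. The call was lost on leaving out Tet1 replicate 1, Tet1 replicate 2 or HOXA9 replicate 2 (adjusted p = 0.201, 0.154 and 0.15), where 0 relatives were called.

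On its brighter probe set, FMN1 had every Tet1 array below the control mean and every HOXA9 array above it. Its mean difference from control was -0.18 in Tet1 (limma adjusted p = 0.117) and 0.68 in HOXA9. With the mean of both FMN1 probe sets the Tet1 difference was 0.24 (adjusted p = 0.0278), on the same side as HOXA9, so the opposition depends on the probe set. With equal array medians the differences were -0.65 in Tet1 (adjusted p = 0.000143) and 0.23 in HOXA9 (adjusted p = 0.0746). FMN1 was chosen for differences among these groups, and the opposition was not tested.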

How the results depend on the processing

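Of 30 member differences from control, 24 stayed on the same side of the threshold under all alternatives run, and the other 6 (TNFSF15 in shHMGA2, SLC14A1, FMN1 and CST2 in Tet1, PARM1 and FMN1 in HOXA9) are given above. The directions of 26 of 30 member differences among the changed groups held. AK5, Tet1 minus shHMGA2, turned to -0.33 after quantile normalization and -0.23 with equal array medians. PARM1, HOXA9 minus shHMGA2, turned to -0.20 and -0.36 there, to -0.026 with the replicate block, and ranged over -0.039 to 0.23 with 1 array left out (-0.012 without HOXA9 replicate 2). Between Tet1 and HOXA9, CST2 turned to -0.033 without HOXA9 replicate 1 and MUC15 to 0.050 without HOXA9 replicate 2 (ranges -0.033 to 0.43 and -0.20 to 0.050). Among named relatives, 58 of 70 differences kept direction and call. FMNL3 in Tet1 and HOXA9 and GUK1 in HOXA9 turned to -0.055, -0.033 and -0.036 against control with equal array medians.

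The 80 genes called between Tet1 and HOXA9 (26.2% higher) became 145 after quantile normalization (37.9% higher), 143 in a fit of these groups alone and 1112 with the averaged columns counted, where 8 relatives were called. Leaving out 1 array gave 11 to 72 genes and 0 to 2 relatives: 11 and 18 genes on leaving out Tet1 replicate 1 or 2, 17 on leaving out HOXA9 replicate 2, each with 0 relatives, and 2 relatives without HOXA9 replicate 1. Those fits take the lone array to vary like the other groups. In shHMGA2 against control 3623 to 4527 genes and 19 to 28 relatives were called with 1 array left out, in Tet1 12663 to 13883 and 90 to 99, in HOXA9 12398 to 13575 and 88 to 94. The replicate numbers were not taken to pair arrays, since deviations of same-numbered shHMGA2 and control arrays correlated at 0.16, 0.14 and 0.002, and those of the 2 numbered pairs of Tet1 and HOXA9 arrays, fewer than 3, at 0.17 each. With the replicate block, 69 genes were called between Tet1 and HOXA9, 4885 in shHMGA2, 14093 in Tet1 and 13805 in HOXA9 against control, with 1, 23, 99 and 95 relatives. The number of arrays, and for dim probe sets the background, limits precision.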
